A study of Mus musculus with 15 samples.

Results

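A set of 10 immediate early genes was followed, out of the 23359 genes in each of the study's comparison tables: Fos, Fosb, Jun, Junb, Jund, Egr1, Ier2, Atf3, Nr4a1 and Dusp1. They were taken by name, as immediate early genes of the AP-1, EGR and NR4A groups and a few genes induced with them. All 10 were found, and all 10 were tested in every comparison. The RNA came from leukemia stem cells (LSC) of 4 sites of leukemic mice, namely gonadal adipose tissue (AT), spleen (SPL), peripheral blood (BL) and bone marrow (BM). The leukemia models the blast crisis of chronic myeloid leukemia in mice and is driven by 2 human oncogenes expressed together, BCR-ABL and NUP98-HOXA9. The cells were taken 12 days after leukemia cells had been transplanted into recipients. The comparison group was the normal counterpart of the LSC from normal bone marrow (NBM). Each of the 5 groups had 3 libraries, 15 in all, from female mice of 3 months. The labels give the NBM libraries the same strain and transplantation text as the LSC libraries, and only their cell type and source set them apart. The labels name neither the sort gate nor the mouse behind a library, so the p-values may measure technical spread.

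Immediate early genes are switched on within minutes of a stimulus by transcription factors that are already in the cell, such as the serum response factor and CREB, which MAP kinases and cyclic AMP signalling activate. Fos and Jun proteins pair to form AP-1, and Egr1 and Nr4a1 are DNA-binding factors of their own families. Dusp1, a phosphatase, switches MAP kinases off and so closes the loop. In blood cells these genes answer cytokines, adhesion and stress, and they are also known to be induced when tissue is dissociated or cells are sorted.

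The promoters of Fos, Fosb, Nr4a1 and Dusp1 are shown as examples of members with motif matches. Those of Atf3 and Junb also held a match and are not shown. Each run is the 250 bases before the start site, read 5′ to 3′ on the gene's strand from RefSeq's GRCm38.p6, and capitals mark the matches described after them. Fos lies on the plus strand at chr12:85473640-85473889, Fosb on the minus strand at chr7:19310046-19310295, Nr4a1 on the plus strand at chr15:101266596-101266845 and Dusp1 on the minus strand at chr17:26508473-26508722.
Fos: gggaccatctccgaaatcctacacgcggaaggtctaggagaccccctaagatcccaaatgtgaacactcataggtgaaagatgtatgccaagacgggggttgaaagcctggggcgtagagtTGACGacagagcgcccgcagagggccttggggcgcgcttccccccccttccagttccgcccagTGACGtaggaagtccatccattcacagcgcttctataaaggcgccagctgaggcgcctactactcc
Fosb: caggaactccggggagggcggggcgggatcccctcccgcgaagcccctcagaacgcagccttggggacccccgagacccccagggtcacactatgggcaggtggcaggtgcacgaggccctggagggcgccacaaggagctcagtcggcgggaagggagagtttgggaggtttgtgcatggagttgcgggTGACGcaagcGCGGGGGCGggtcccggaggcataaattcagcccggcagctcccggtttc
Nr4a1: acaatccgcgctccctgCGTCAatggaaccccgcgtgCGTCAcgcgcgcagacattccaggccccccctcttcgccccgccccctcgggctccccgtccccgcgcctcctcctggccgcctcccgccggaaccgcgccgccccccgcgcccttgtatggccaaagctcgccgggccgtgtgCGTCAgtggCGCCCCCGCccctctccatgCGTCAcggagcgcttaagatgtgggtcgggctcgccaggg
Dusp1: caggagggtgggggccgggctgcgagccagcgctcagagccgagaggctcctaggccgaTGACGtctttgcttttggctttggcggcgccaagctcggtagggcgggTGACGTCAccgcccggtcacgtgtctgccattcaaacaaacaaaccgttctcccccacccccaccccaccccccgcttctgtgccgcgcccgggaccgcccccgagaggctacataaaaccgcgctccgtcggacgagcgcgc
Promoter windows of 300 bases (250 before and 50 after the start) were found for 8 of the 10 members, all but Egr1 and Ier2. Start sites depend on the annotation. The Jund window, at 46.7% GC, takes its start at chr8:70697739, while the GENCODE annotation starts Jund at 70698949. Both strands were searched, so a match can stand reversed, as CGTCA for TGACG or CGCCCCCGC for GCGGGGGCG. The full cyclic AMP response element, TGACGTCA, was in 1 of the 8 windows, that of Dusp1, against 1.79% of 32851 promoters. Its shorter core TGACG, a motif added to the search after the sequences had been seen and contained in the full element, was in 6 of 8 (Atf3, Dusp1, Fos, Fosb, Junb and Nr4a1) against 20.8%. Nr4a1 held 4 such cores, Fos held 2 and Fosb held 1. The EGR site, GCGTGGGCG or GCGGGGGCG, was in 2 of 8, Fosb and Nr4a1, against 3.47%. The CArG box of the serum response factor was in none of the 8 windows (1.63% of all promoters), nor was the AP-1 site TGACTCA or TGAGTCA (5.20%), nor the NR4A element AAAGGTCA (1.51%). A match is a run of letters, not a site shown to be bound, and the absence of one concerns these letters in these windows only.

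All levels are the authors' FPKM, fragments scaled by gene length and by sequencing depth, with 1 pooled value per group. They are given with the deposited lower and upper bounds, which lie 2 standard deviations (SD) on either side. Folds, standard errors (SE) and q-values belong to the authors' Cuffdiff comparisons, and a gene was called at a q below 0.05. No value of a single library was used. The pooled columns held between 8.96e+06 (SPL) and 1.96e+07 (AT) estimated counts. Members' counts ranged from 5.58 for Jund in SPL LSC to 31074 for Fos in NBM. Ptprc, the pan-leukocyte gene CD45, was at 13.3 to 54.3 FPKM in the 5 groups, and Hoxa9 was at 0.771 FPKM in NBM and 2.03 to 3.65 FPKM in the LSC groups. In RNA from a bulk population, fewer cells that express a gene and less RNA per cell cannot be told apart.

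Of the 10 members, 9 (all but Egr1) had their lowest level in spleen LSC. In turn, 6 were highest in adipose LSC (Fosb, Jun, Junb, Jund, Ier2 and Atf3) and 2 in blood LSC (Nr4a1 and Dusp1). Fos was highest in normal marrow, and Egr1 was highest in marrow LSC and lowest in blood LSC. The distance from the lowest to the highest group ran from 1.69-fold for Ier2 to 10.3-fold for Nr4a1. Of the 40 steps between neighbouring groups, 4 were called: Egr1 from SPL to BL LSC, Atf3 from NBM to SPL LSC, Nr4a1 from AT LSC to NBM and Dusp1 from BM to SPL LSC. Of 100 tests of the members over the 10 comparisons, 40 were called, 28 of 60 between sites and 12 of 40 against NBM. Of all tested genes 2.69% to 33.3% were called between sites, depending on the pair, and 12.6% to 34.4% against NBM.

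**Figure D1:**
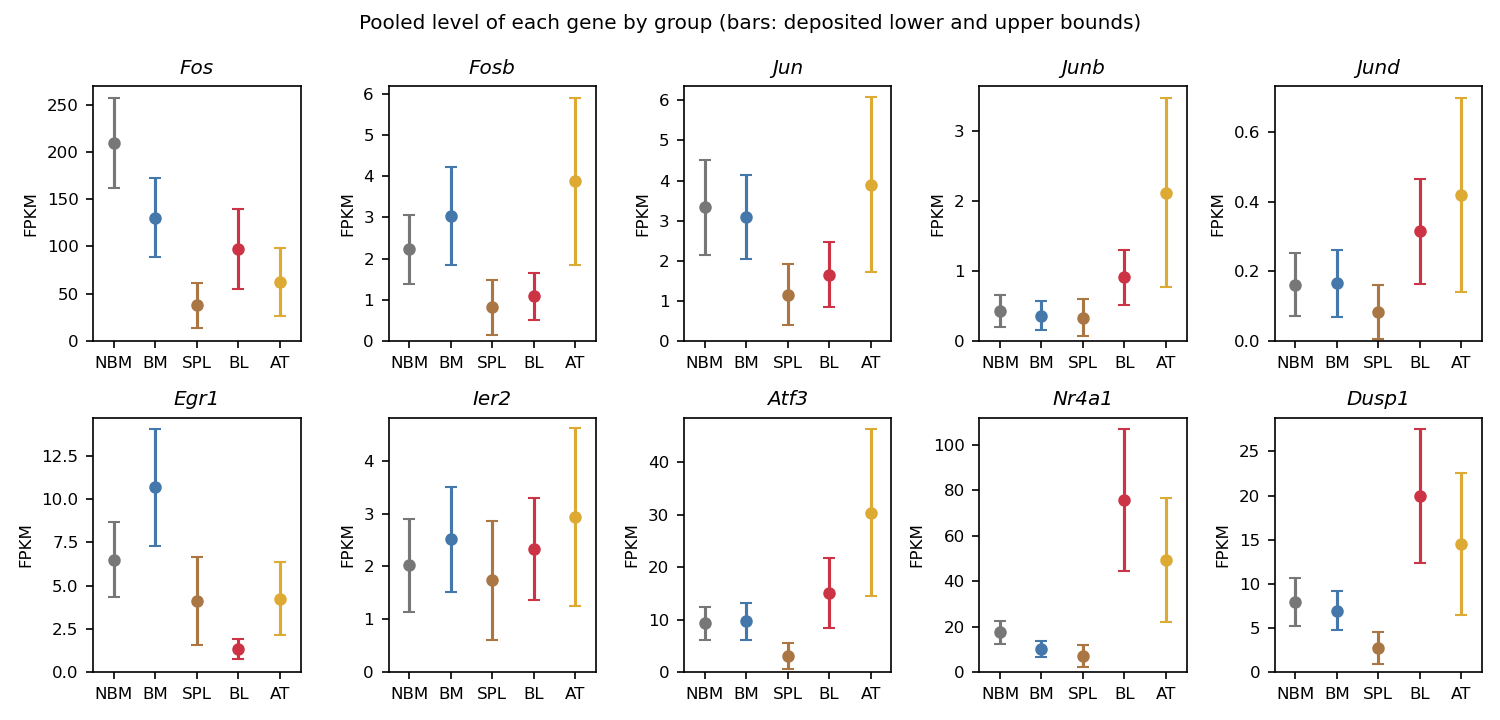
Pooled FPKM (vertical axis, linear, from 0) of each of the 10 genes in NBM and in BM, SPL, BL and AT LSC; points are the deposited values and bars the deposited lower and upper bounds, 2 SD on either side. SPL LSC are lowest in 9 panels, and Egr1 is lowest in BL LSC.

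Fos, the AP-1 subunit whose gene is the textbook immediate early gene, was the most abundant member in every group. Its FPKM was 209.6 in NBM (161.5 to 257.7), 130.5 in BM LSC (88.9 to 172.1), 97.6 in BL LSC (55.4 to 139.7), 62.0 in AT LSC (25.9 to 98.0) and 37.5 in SPL LSC (13.9 to 61.2). NBM and SPL LSC stood at the 2 ends and their bounds did not overlap, and none of the steps between neighbours in this order was called. In the authors' deposited table the log2 fold against NBM was -2.48 (SE 0.484, q = 8.41e-06) for SPL LSC. It was -1.76 (SE 0.451, q = 0.00119) for AT LSC and -1.10 (SE 0.353, q = 0.0125) for BL LSC in the authors' deposited table. The call in BL LSC was lost once folds were centred or scaled by the upper quartile. BM LSC were at -0.68 with a q of 0.0684 in the authors' deposited table, which did not pass. Between sites, Fos was called in SPL against BM LSC alone, at -1.80 (SE 0.509, q = 0.00389) in the authors' deposited table.

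Fosb, a relative of Fos that pairs with Jun in the same way, took a different course. Its FPKM was 3.87 in AT LSC, 3.04 in BM LSC, 2.23 in NBM, 1.08 in BL LSC and 0.817 in SPL LSC. AT and BM LSC were the high groups, and BL and SPL LSC the low ones. In the authors' deposited table Fosb was called higher in AT than in SPL LSC, at 2.24 (SE 0.696, q = 0.0095), and than in BL LSC, at 1.84 (SE 0.541, q = 0.00565). It was called lower than in BM LSC in SPL, at -1.90 (SE 0.649, q = 0.0213), and in BL, at -1.49 (SE 0.479, q = 0.0127), in the authors' deposited table. The last call was lost under centring and upper quartile scaling. Fosb was called in none of the 4 comparisons with NBM, while Fos was called in 3. The ratio of Fos to Fosb, as FPKM, was 94.2 in NBM, 90.3 in BL, 45.9 in SPL, 42.9 in BM and 16.0 in AT LSC. It was lowest in AT LSC, where Fos was low and Fosb high.

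Jun, which forms AP-1 with Fos proteins or with itself, was the most abundant Jun gene in every group. Its FPKM was 3.89 in AT LSC, 3.33 in NBM, 3.09 in BM LSC, 1.65 in BL LSC and 1.15 in SPL LSC. The first 3 groups lay close together with wide overlap of their bounds, and SPL LSC lay below them. SPL LSC were called lower than NBM at -1.54 (SE 0.543, q = 0.0267) and than BM LSC at -1.43 (SE 0.536, q = 0.0396) in the authors' deposited table. AT LSC were called higher than SPL LSC at 1.76 (SE 0.626, q = 0.0274) in the authors' deposited table.

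Junb, a Jun gene known to restrain myeloid growth, was low in marrow and spleen and higher in blood and adipose LSC. Its FPKM was 2.12 in AT LSC (0.766 to 3.47), 0.907 in BL LSC (0.513 to 1.30), 0.425 in NBM (0.200 to 0.650), 0.360 in BM LSC (0.153 to 0.567) and 0.333 in SPL LSC (0.0642 to 0.602). AT LSC lay above NBM, BM and SPL LSC with no overlap of the bounds. In the authors' deposited table AT LSC were called higher at 2.56 against BM (SE 0.62, q = 0.00053), 2.67 against SPL (SE 0.742, q = 0.0032) and 2.32 against NBM (SE 0.598, q = 0.00129). BL against BM LSC was called at 1.33 (SE 0.52, q = 0.0491) in the authors' deposited table. Jund, usually the steadiest Jun gene, had the same 3 groups at the bottom. Its FPKM was 0.419 in AT, 0.314 in BL and 0.165 in BM LSC, 0.161 in NBM and 0.0838 in SPL LSC, and only AT against SPL LSC was called, at 2.32 (SE 0.821, q = 0.0267) in the authors' deposited table.

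Junb and Jund, as well as Ier2, are rich in G and C and have 1 exon. The longest annotated transcripts were 62.6% GC for Junb, 67.1% for Jund and 60.9% for Ier2, against a median of 49.0% over 9052 genes at 1 FPKM or more. That puts them at the 99.3, 99.9 and 98.6 percentile. Whether base composition moved the levels of these 3 genes was not tested. Their positions on mm10 are chr8:84976909-84978748 for Junb, chr8:70697739-70700616 for Jund and chr8:84661331-84662852 for Ier2.

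Summed over the 5 Fos and Jun genes, Fos held 97.2% of the FPKM in NBM, 95.2% in BM, 94.0% in SPL, 96.1% in BL and 85.7% in AT LSC. Within the Jun genes the make-up differed by site. Jun held 85.0% of the summed Jun, Junb and Jund FPKM in NBM and 85.5% in BM LSC, 73.3% in SPL, 57.5% in BL and 60.6% in AT LSC. Junb held 10.9% in NBM, 9.96% in BM, 21.3% in SPL, 31.6% in BL and 32.9% in AT LSC. Marrow, leukemic or normal, was the site with the largest Jun share, and blood and adipose tissue the sites with the largest Junb share. These shares come from pooled values and carry no test. The part of base composition in them was not tested either.

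Egr1, a zinc-finger factor that growth factors induce through MAP kinases, was the 1 member with its lowest level in blood LSC. Its FPKM was 10.7 in BM LSC (7.31 to 14.0), 6.50 in NBM (4.33 to 8.67), 4.25 in AT LSC (2.17 to 6.33), 4.13 in SPL LSC (1.61 to 6.66) and 1.36 in BL LSC (0.801 to 1.91). The bounds of BL LSC overlapped those of SPL LSC only. In the authors' deposited table BL LSC were at -2.97 against BM (SE 0.373, q = 3.32e-13), -2.26 against NBM (SE 0.381, q = 1.52e-07) and -1.61 against SPL (SE 0.531, q = 0.0162). AT LSC were called higher than BL LSC at 1.65 (SE 0.461, q = 0.00338) and lower than BM LSC at -1.33 (SE 0.42, q = 0.0115) in the authors' deposited table. SPL LSC were lower than BM LSC at -1.37 (SE 0.496, q = 0.0315) in the authors' deposited table. The calls of BL against SPL and of AT against BM LSC were each lost under at least 1 of 3 other scalings.

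Egr2, Egr3 and Egr4, which bind the same DNA site, were lowest in BL LSC too. Egr2 was at 0.356 FPKM in BL LSC and 1.03 to 2.09 FPKM in the other groups, Egr3 at 0.191 against 0.574 to 1.25, and Egr4 at 0.082 against 0.266 to 0.70. BL against BM LSC was -2.32 for Egr2 (q = 3.08e-06), -2.71 for Egr3 (q = 4.13e-05) and -3.09 for Egr4 (q = 2.37e-05) in the authors' deposited table. All 3 were also called lower in BL LSC than in NBM, at -2.56, -2.09 and -2.26 in the authors' deposited table. Egr3 and Egr4 were highest in BM LSC, like Egr1, and Egr2 in NBM. These relatives were singled out after their values had been seen.

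Nr4a1, an orphan nuclear receptor known for its part in the making of Ly6C-low monocytes, was the member with the largest range. Its FPKM was 75.5 in BL LSC (44.3 to 106.7), 49.4 in AT LSC (22.2 to 76.6), 17.6 in NBM (12.6 to 22.5), 10.3 in BM LSC (6.96 to 13.6) and 7.31 in SPL LSC (2.50 to 12.1). Blood LSC lay clear of NBM, BM and SPL LSC, and AT LSC overlapped with BL LSC widely and with NBM at the edge of the bounds. BL LSC were called higher at 3.37 against SPL (SE 0.561, q = 9.8e-08), 2.88 against BM (SE 0.378, q = 4.63e-12) and 2.11 against NBM (SE 0.361, q = 2.62e-07) in the authors' deposited table. The matching values for AT LSC were 2.76 (SE 0.619, q = 0.000153), 2.26 (SE 0.461, q = 2.23e-05) and 1.49 (SE 0.447, q = 0.00688) in the authors' deposited table. AT and BL LSC differed by -0.61 (SE 0.497, q = 0.446) in the authors' deposited table, which did not pass.

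The other NR4A receptors were at lower levels. Nr4a3 was at 0.192 FPKM in AT LSC and 0.169 FPKM in BL LSC and at 0.0128 to 0.0635 FPKM elsewhere. Nr4a2 was at 1.40 FPKM in AT LSC and at 0.216 to 0.392 FPKM in the other 4 groups, BL LSC included. AT LSC were called higher for Nr4a2 against all 4, at 2.70 (BM), 1.84 (SPL), 2.44 (BL) and 2.25 (NBM) in the authors' deposited table. In blood, then, Nr4a1 was high while Nr4a2 was at 0.258 FPKM.

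Dusp1 followed Nr4a1 in the order of BL, AT, NBM, BM and SPL. Its FPKM was 19.9 in BL LSC (12.4 to 27.5), 14.5 in AT LSC (6.51 to 22.6), 7.99 in NBM (5.29 to 10.7), 6.98 in BM LSC (4.74 to 9.21) and 2.76 in SPL LSC (0.996 to 4.52). Blood LSC lay above and spleen LSC below both marrow groups without overlap of the bounds. BL LSC were called higher at 2.85 against SPL (SE 0.536, q = 3.46e-06), 1.51 against BM (SE 0.358, q = 0.000365) and 1.32 against NBM (SE 0.367, q = 0.00318) in the authors' deposited table. AT LSC were called against SPL LSC alone, at 2.40 (SE 0.609, q = 0.00104) in the authors' deposited table. SPL LSC were called lower than NBM at -1.53 (q = 0.0202) and than BM LSC at -1.34 (q = 0.0461) in the authors' deposited table.

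Atf3, a stress-induced factor of the CREB and ATF family that can pair with Jun, was highest in adipose LSC. Its FPKM was 30.4 in AT LSC (14.5 to 46.3), 15.2 in BL LSC (8.46 to 21.9), 9.72 in BM LSC (6.15 to 13.3), 9.32 in NBM (6.23 to 12.4) and 3.16 in SPL LSC (0.733 to 5.59). AT LSC lay above both marrow groups and SPL LSC below them, with no overlap of the bounds. AT LSC were called higher at 3.26 against SPL (SE 0.671, q = 2.73e-05), 1.64 against BM (SE 0.461, q = 0.00351) and 1.70 against NBM (SE 0.447, q = 0.00156) in the authors' deposited table. BL against SPL LSC was called at 2.26 (SE 0.639, q = 0.00379), and SPL LSC were called lower than BM at -1.62 (q = 0.0416) and NBM at -1.56 (q = 0.0472) in the authors' deposited table. Ier2, a small nuclear protein induced with the others, was the member with no call in any of the 10 comparisons. Its FPKM was 2.93 in AT, 2.51 in BM and 2.33 in BL LSC, 2.02 in NBM and 1.74 in SPL LSC, and the bounds of all 5 groups overlapped. Its largest fold was 0.76 for AT against SPL LSC (SE 0.623, q = 0.457) in the authors' deposited table, an error that leaves room for a sizeable difference.

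Spleen and marrow LSC were the pair of LSC groups with the fewest genes called, 2.69% of those tested in either direction. Of the members 6 of 10 were called, all lower in SPL LSC (1.5% of tested genes were called lower and 1.19% higher): Fos, Fosb, Jun, Egr1, Atf3 and Dusp1. All 10 members had a fold below 0, with a median of -1.35 against 0.12 over all tested genes. Only Fos, at a q of 0.048, was still called when p-values were adjusted within this comparison alone, where 0.88% of tested genes passed. The q-values of the other 5 were then 0.196 for Fosb, 0.333 for Jun, 0.279 for Egr1, 0.346 for Atf3 and 0.374 for Dusp1. The deposited q-values pool the tests of all 10 comparisons, and the 6 calls rest on that. SPL LSC also had the fewest estimated counts, 8.96e+06 against 1.65e+07 in BM LSC. The part of this depth in the member folds was not tested. The lymphoid marker list moved in the same comparison, with 6 of 9 tested genes higher in SPL LSC and a summed level of 20.4 against 6.06 FPKM. Of 5 erythroid markers tested 1 was higher in SPL LSC. Car1, the carbonic anhydrase of red cell precursors, was at 238.7 FPKM in SPL LSC and 71.1 FPKM in BM LSC. The globin genes Hba-a1 (520.6 and 414.1 FPKM) and Hbb-b1 (307.0 and 364.4 FPKM) are given as levels in SPL and BM LSC and were not tested. The part of these cells in the member folds was not tested.

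Against normal marrow, none of the 10 members was called in BM LSC with the authors' Cuffdiff test, where 16% of tested genes were, 8.17% higher and 7.85% lower. Fos, Egr1 and Nr4a1, 3 members, had an unadjusted p under 0.05 there, and scaling by the upper quartile gave 1 call and by total count 2. In SPL LSC 4 of 10 members were lower than in NBM (Fos, Jun, Atf3 and Dusp1) and none higher, where 12.6% of tested genes were called, 6.37% higher and 6.19% lower. In BL LSC 2 were higher (Nr4a1 and Dusp1) and 2 lower (Fos and Egr1), where 34.4% were called, 11.5% higher and 22.9% lower, so that the share of members called was near that of all genes. In AT LSC 3 were higher (Junb, Atf3 and Nr4a1) and Fos was lower, against 23.4% of tested genes called, 7.94% higher and 15.5% lower. Centred folds gave 6 higher and 1 lower in AT LSC and 4 higher and 1 lower in BL LSC. Of 13346 tested genes 1650 were then higher and 876 lower in AT LSC, instead of 1060 and 2067. Of 13020 tested genes 2162 were then higher and 1821 lower in BL LSC, instead of 1494 and 2980. The median member fold was -0.04 in BM, -1.35 in SPL, 0.45 in BL and 0.83 in AT LSC, against -0.03, 0.11, -0.36 and -0.46 over all tested genes. These 4 comparisons share the NBM libraries. The summed level of lymphoid markers was 59.9 FPKM in NBM and 2.99 to 20.4 FPKM in the LSC groups, and of 10 tested genes 9 were lower than in NBM in BM, 6 in SPL, 8 in BL and 9 in AT LSC. Of 9 macrophage and monocyte markers, 7 were lower and 1 higher in BM LSC than in NBM, 3 lower and 1 higher in SPL LSC, 2 lower and 5 higher in BL LSC and 3 lower and 2 higher in AT LSC. The part of these cells in the member folds against NBM was not tested.

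Adipose LSC had 7 of 10 members higher than spleen LSC and none lower (Fosb, Jun, Junb, Jund, Atf3, Nr4a1 and Dusp1), where 25.1% of tested genes were called (7.2% higher and 17.9% lower). All 10 folds were above 0, with a median of 2.28 against -0.52 over all tested genes. Against BM LSC 3 members were higher in AT LSC (Junb, Atf3 and Nr4a1) and Egr1 was lower, where 22.8% were called, 7.24% higher and 15.5% lower. Under each of the other scalings this became 5 higher and none lower. Of 13160 tested genes 1307 to 1557 were then higher and 673 to 990 lower, instead of 953 and 2046. Against BL LSC 2 members were higher in AT LSC, Fosb and Egr1, where 6.52% were called, 4.01% higher and 2.51% lower. BL LSC had 3 members higher than BM LSC (Junb, Nr4a1 and Dusp1) and 2 lower (Fosb and Egr1), and 3 higher than SPL LSC (Atf3, Nr4a1 and Dusp1) with Egr1 lower. In both of these comparisons 33.3% of tested genes were called, 10.5% higher and 22.8% lower against BM LSC, and 10.2% higher and 23.1% lower against SPL LSC. Against SPL LSC the share of members called, 40%, was near that of all genes. Scaled otherwise, BL against SPL LSC gave 6 higher and none lower. Of 12370 tested genes 1648 to 2040 were then higher and 1604 to 2059 lower, instead of 1264 and 2858. Over all genes the median fold of AT or BL LSC against the marrow and spleen groups lay at -0.36 to -0.52, so a rise of a member there ran against the general shift.

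**Figure D2:**
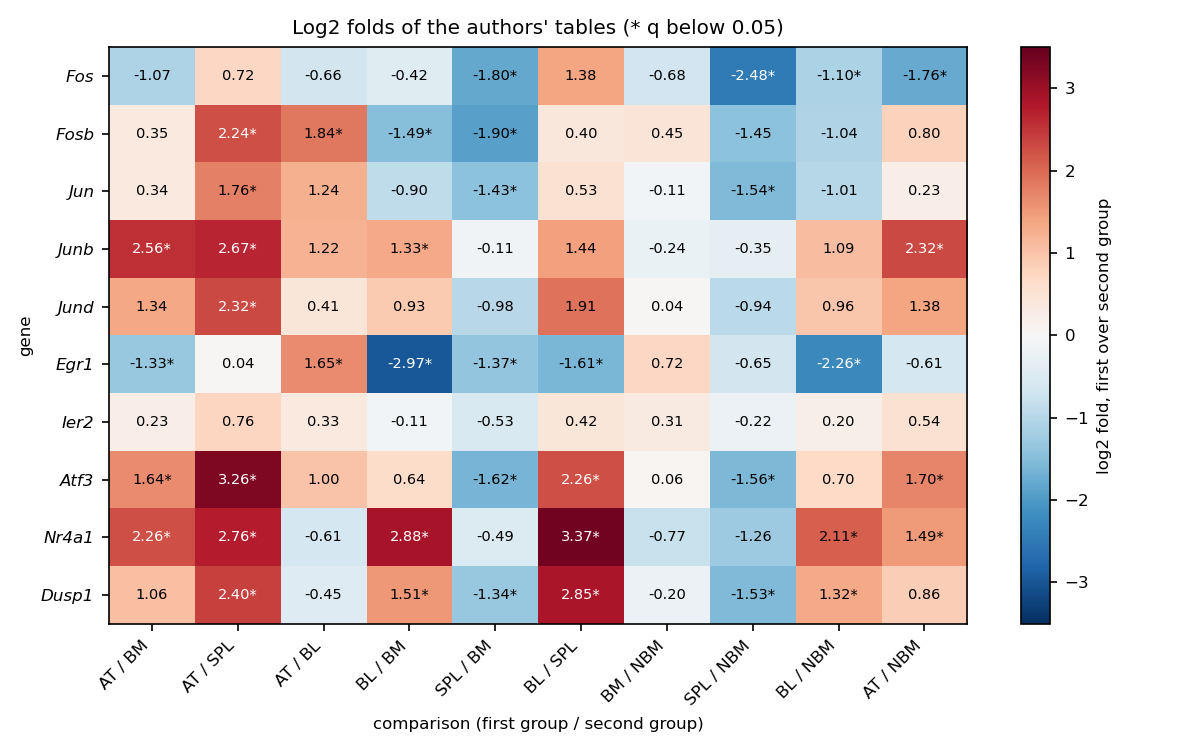
Log2 folds of the 10 genes (rows) in the 10 comparisons (columns, first group over second), as in the authors' deposited tables; red is higher and blue lower in the first group, and a star marks a q below 0.05. The column of SPL against BM holds 10 folds below 0, and Egr1 is blue where BL is compared with BM, SPL or NBM.

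**Figure D3:**
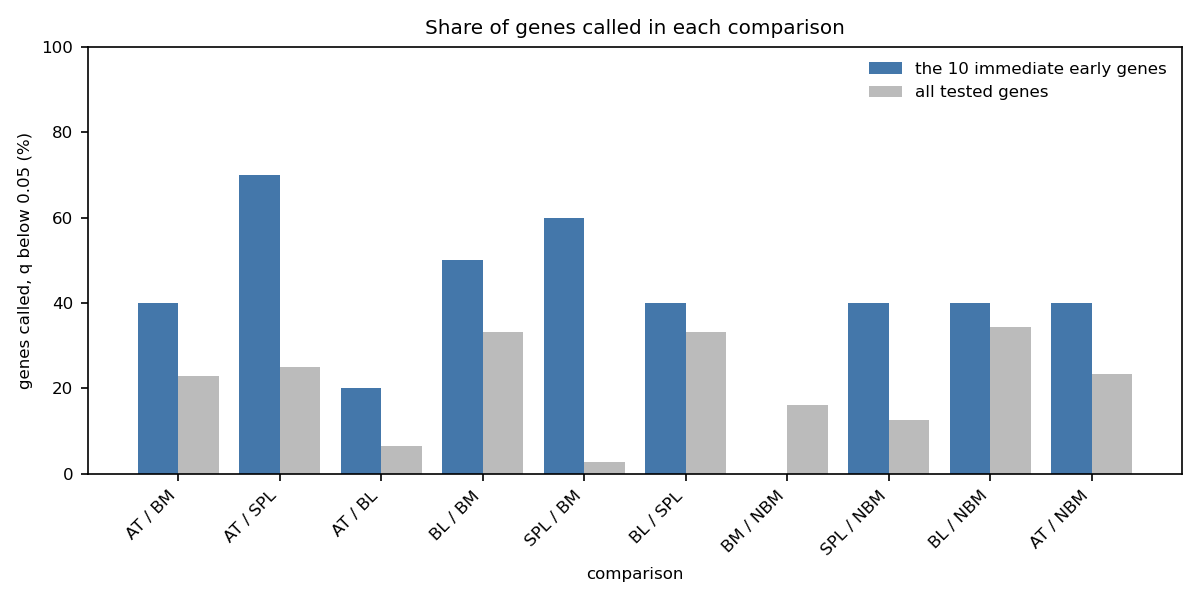
Percent of genes called (vertical axis, from 0 to 100) among the 10 genes (blue bars) and among all tested genes (grey bars) in each comparison. The blue bar is above the grey one in every comparison but BM LSC against NBM, where it is at 0. The gap is small for BL LSC against NBM and for BL against SPL LSC.

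A list of 40 other immediate early genes leaves out the 10 members. In SPL against BM LSC 1.5% of all tested genes were lower and 1.19% higher, with a median fold of 0.12. Of this list 5 of 33 tested genes were lower and none higher, with a median fold of -0.62. They were Rgs1 and Rgs2, which dampen G-protein signals, Klf2 and Klf6, zinc-finger factors, and Ier3, a stress-inducible gene. Rgs1 was at 9.83 FPKM in SPL and 41.8 in BM LSC, a fold of -2.09 (SE 0.459, q = 0.000101) in the authors' deposited table. Klf2 was at 1.22 and 5.31 FPKM, a fold of -2.12 (SE 0.539, q = 0.00102) in the authors' deposited table. Among the 31 genes of the list at 1 FPKM or more in some group, 19 were lowest in SPL LSC, and 11 were highest in AT and 10 in BL LSC.

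In AT against BM LSC 15 of 37 tested genes of this list were higher and 1 lower, with a median of 0.89. In AT against SPL LSC 20 were higher and 2 lower, with a median of 1.75. In AT against BL LSC 8 were higher and none lower, with a median of 0.18. Over all tested genes 7.24% were higher and 15.5% lower in AT than in BM LSC, with a median of -0.48. The values were 7.2%, 17.9% and -0.52 against SPL LSC, and 4.01%, 2.51% and -0.11 against BL LSC. BL LSC had 12 of 35 tested genes of the list higher than BM LSC and 4 lower, with a median of 0.69. Against SPL LSC they had 15 of 34 higher and 2 lower, with a median of 1.33. Of all tested genes 10.5% and 10.2% were higher. The 6 genes of this list with the smallest q in AT against BM LSC were Cyr61, Tiparp, Klf4, Nr4a2, Gadd45b and Fosl1. Cyr61, a secreted matrix protein, was at 1.22 FPKM in AT LSC and 0.0418 FPKM in BM LSC, 4.87 (q = 1.70e-06) in the authors' deposited table. Gadd45b, a stress sensor, was at 6.90 and 1.38 FPKM, 2.32 (q = 6.41e-05) in the authors' deposited table. Fosl1, a Fos relative, was at 3.15 FPKM in AT LSC and 0.162 to 0.453 in the other groups. It was called higher in AT LSC against all 4 of them, at 2.80 (BM), 3.06 (SPL), 3.48 (BL) and 4.28 (NBM) in the authors' deposited table. Fosl2, another Fos relative, reached 3.59 FPKM in AT LSC and 2.68 FPKM in BL LSC and at 0.706 to 1.08 in the other groups. Batf3 and Klf4 were 2 of the 5 genes lower in BM LSC than in NBM, at -2.72 and -1.66 in the authors' deposited table, beside Btg2, Zfp36 and Rgs1, and Ier3 was the 1 higher, at 1.07.

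**Figure D4:**
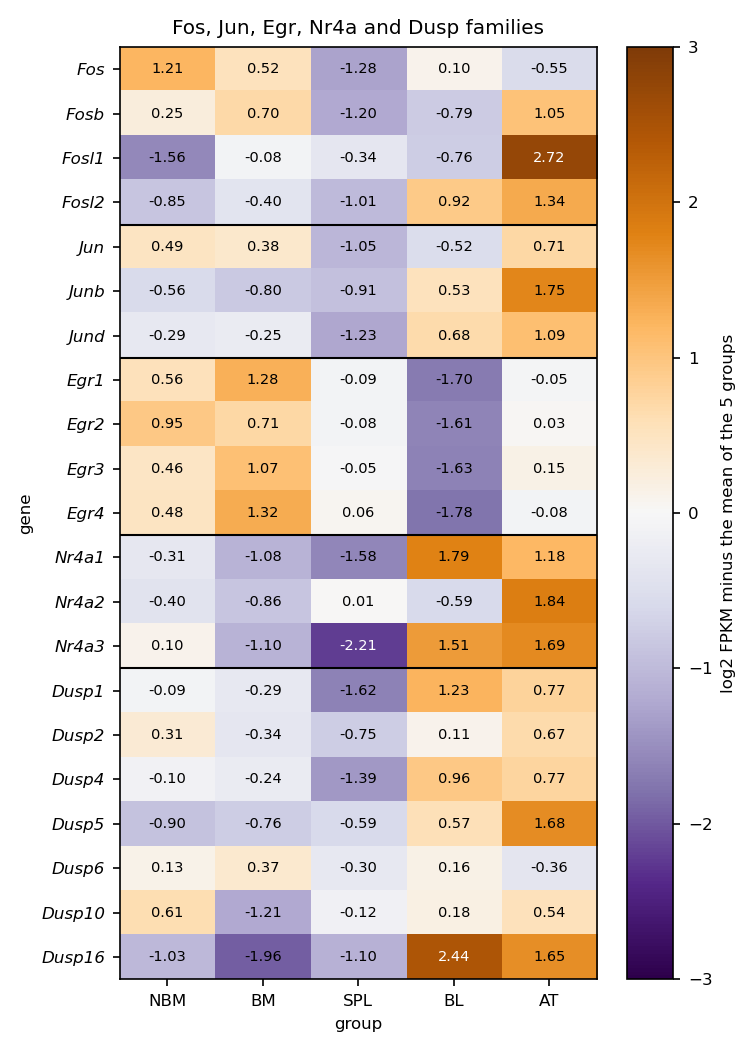
Log2 FPKM minus the gene's mean over the 5 groups (colour and number) for Fos, Jun, Egr, Nr4a and Dusp genes (rows) in the 5 groups (columns). The 4 Egr genes are lowest in BL LSC, Fosl1 and Nr4a2 stand out in AT LSC, and Dusp16 is high in BL and AT LSC.

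Genes that shut the response down were followed as well. Of all tested genes 7.24% were higher and 15.5% lower in AT than in BM LSC, and 7.2% and 17.9% in AT than in SPL LSC. Between AT and BL LSC 6.52% of all tested genes were called, and 2.69% between SPL and BM LSC. Of 18 MAP kinase phosphatases and other feedback genes, 6 were higher and 1 lower in AT than in BM LSC. In AT against SPL LSC 7 of them were higher and none lower. Between AT and BL LSC none was called by the authors' Cuffdiff test (3 at an unadjusted p under 0.05, and 1 or 2 called under other scalings), and none of 17 was called between SPL and BM LSC (none at an unadjusted p under 0.05 and none under other scalings). Dusp16, a phosphatase that prefers JNK, reached 8.94 FPKM in BL LSC and 5.16 FPKM in AT LSC, against 0.425 in BM and 0.767 in SPL LSC and 0.809 in NBM. AT against BM LSC was 3.60 (SE 0.472, q = 3.90e-12) in the authors' deposited table. Dusp5, which acts on ERK in the nucleus, was at 1.71 FPKM in AT LSC and 0.316 FPKM in BM LSC, 2.44 (q = 0.00108) in the authors' deposited table. In BM LSC against NBM, Spry1 and Spry4, inhibitors of receptor tyrosine kinase signals, were higher at 1.64 and 2.12, and Dusp10 and Zfp36l1 lower at -1.83 and -1.31 in the authors' deposited table.

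The kinases and factors that act ahead of the immediate early genes formed a list of 22. Of these regulators, 4 were higher and none lower in AT than in BM LSC, 3 in AT than in SPL LSC and 1 in AT than in BL LSC. Over all tested genes 22.8% were called against BM LSC, 7.24% higher and 15.5% lower. The shares were 25.1%, 7.2% and 17.9% against SPL LSC, and 6.52%, 4.01% and 2.51% against BL LSC. The 4 regulators higher than in BM LSC were Map3k8, Mapkapk2, Mkl1 and Crem. Map3k8, the kinase that links inflammatory receptors to ERK, was at 12.4 FPKM in AT LSC and 3.82 FPKM in BM LSC, 1.70 (SE 0.435, q = 0.00112) in the authors' deposited table. Crem, a cyclic AMP responsive factor, was at 8.48 FPKM in AT LSC and 1.41 to 2.60 in the other groups. It was the 1 regulator called in AT against BL LSC, at 1.86 (q = 0.0118) in the authors' deposited table. Srf, the serum response factor, was at 0.292 to 0.476 FPKM in all groups. In BM LSC against NBM 1 regulator was called, Mkl1, at -1.25 (q = 0.00413) in the authors' deposited table.

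Heat shock genes encode chaperones, some constitutive and some stress-induced. Against BM LSC 15.5% of all tested genes were lower and 7.24% higher in AT LSC, and 22.8% and 10.5% in BL LSC. None of 11 heat shock genes was higher in AT or BL LSC than in BM LSC. Of them 3 were lower in AT (1 under each other scaling) and 6 of 10 tested were lower in BL LSC (5 or 6). The summed level, most of it from the constitutive Hspa8 and Hsp90ab1, was 2208 FPKM in NBM, 2116 in BM, 2920 in SPL, 864 in BL and 1132 in AT LSC. The inducible Hspa1a and Hspa1b were highest in AT LSC, at 9.47 and 8.76 FPKM, against 6.38 and 6.09 FPKM in BM LSC and 3.96 and 3.85 FPKM in BL LSC. Neither was called in AT LSC against BM LSC. Whether stress or handling moved the members was not tested. Hspe1, a mitochondrial chaperone, was at 22.5 FPKM in AT LSC and 69.2 FPKM in BM LSC.

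Markers of other cell types differed between groups too, some lists in the direction of the members and some not. In SPL against BM LSC 2 of 9 macrophage and monocyte markers were higher and 1 lower, with a median of 0.57. Of 10 neutrophil markers none was higher and 1 lower, with a median of -0.45. Of all tested genes 1.19% were higher and 1.5% lower there, and the member median was -1.35. The 9 macrophage and monocyte markers found summed to 1420 FPKM in BL and 1008 in AT LSC, against 204.4 in BM, 215.4 in SPL LSC and 406.2 in NBM. Lyz2, the lysozyme gene, made up most of each sum, at 1105 FPKM in BL LSC, 851.9 in AT LSC, 120.9 in BM LSC, 150.9 in SPL LSC and 298.5 in NBM. None of the 9 was below 0.1 FPKM in any group. Of these 9, 6 were higher in BL and 4 in AT LSC than in BM LSC. Of all tested genes 10.5% were higher in BL and 7.24% in AT LSC than in BM LSC. The 10 neutrophil markers summed to 3996 FPKM in AT LSC and to 694 to 1584 FPKM in the other groups, and 6 of 10 were higher in AT than in BM LSC. Ngp, S100a8 and S100a9 led the AT LSC sum, at 1605, 1331 and 706.8 FPKM. Trem1, Mmp8, Retnlg, Cxcr2 and Mmp9 were highest in BL LSC. In BL against BM LSC 5 of the 10 were higher and none lower. In AT against BL LSC 4 were higher and 2 lower, where 4.01% and 2.51% of all tested genes were. The 8 stromal markers summed to 29.5 FPKM in AT LSC and to 1.10 to 2.86 elsewhere, with Dcn, a matrix proteoglycan, at 21.0 FPKM in AT LSC and under 0.1 FPKM in the other 4. Of 7 stromal markers tested, 6 were higher in AT than in BM LSC. The adipocyte genes Adipoq, Plin1 and Lep were below 0.1 FPKM in all 5 groups, AT LSC included. All 3 adipocyte markers tested in AT against BM LSC were higher in AT LSC, and all 3 against NBM. Cidec, a lipid droplet gene, was at 0.263 FPKM in AT LSC and 0.013 FPKM or less in the other groups. Pparg, a lipid-sensing nuclear receptor, was at 5.84 FPKM in AT LSC, 4.72 FPKM in BL LSC and 0.822 to 1.25 FPKM in the other 3 groups. Fabp4, which macrophages also express, was at 46.2 FPKM in AT LSC and 31.8 FPKM in BL LSC. The progenitor gene Cd34 was at 39.97 FPKM in NBM, 24.3 in BM and 7.92 to 9.60 in the other LSC groups. It is 1 of 11 progenitor and leukemia identity genes found. Against BM LSC, with 10 of them tested, 3 were lower and none higher in AT LSC, with a median fold of 0.11. In SPL LSC 2 were lower and none higher (median -0.53), and in BL LSC 4 were lower and 2 higher (median -0.89). Against NBM 3 were lower and 2 higher in BM LSC, and 4 lower and 1 higher in SPL LSC. In BL LSC 5 were lower and 3 higher, and in AT LSC 4 lower and 2 higher. The medians against NBM were -0.79 in BM, -1.34 in SPL, -1.85 in BL and -1.05 in AT LSC. Over all tested genes they were -0.03, 0.11, -0.36 and -0.46. The part of these cell types in the levels of the members was not tested.

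Genes with a pattern most like a member were ranked by root mean square distance between centred log2(FPKM + 1) profiles over the 5 groups, among 9630 genes at 1 FPKM or more in some group. For Nr4a1 the nearest was Smpdl3a at a distance of 0.125, with 40.6 FPKM in BL, 21.2 in AT, 4.31 in BM and 3.51 in SPL LSC and 7.59 in NBM. Among the next were 9830107B12Rik, 9530003J23Rik and Ceacam10, at 0.159 to 0.198. For Egr1 they were Bcat1, Mthfd2, Cenpa, Snord17 and Nudc, at 0.283 to 0.326. For Fos they were Rassf2, Mir697, Btg2, Snord35a and Rgs1, at 0.393 to 0.424. Mir697 and Snord35a were at 0 FPKM in SPL LSC and at no more than 2.59 and 6.60 FPKM elsewhere. At such low levels the added 1 FPKM weighs on the distance. With 5 pooled points that share their libraries and scaling, these distances are descriptions.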

How the data were processed

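RNA was measured in 15 libraries, 3 in each of 5 groups. Per the labels' protocols, extraction was by Qiagen RNeasy Plus and the low-input libraries combined SMARTer (Clontech) with Nextera XT chemistry. The submitters' processing notes name Trimmomatic 0.32, Cufflinks 2.0.2, Cuffdiff and mm10. For the aligner and the annotation the sources used here give no name. The authors deposited pooled FPKM values with bounds and estimated counts per gene and group. For each pair of groups the authors also deposited a log2 fold change, a test statistic (a score whose size is the fold over its SE), a p-value and a q-value per gene. Adjusting the 127922 p-values of the 10 comparisons jointly by Benjamini-Hochberg returned the deposited q-value with a largest difference of 1.70e-06.

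From these, SE was computed as fold over statistic, and folds were turned to read first over second group. Infinite folds were left out of medians and their direction taken from FPKM. A test over replicates was planned should single libraries be given; the columns are pooled, so the authors' test was used. Members, lists and tests were chosen with earlier results of these data known. Named were all members, up to 6 called genes of the immediate early list, 4 of the feedback and regulator lists and 3 of the others by smallest q in AT against BM, SPL and BL LSC and BM LSC against NBM, and 5 nearest patterns for Fos, Egr1 and Nr4a1; other genes were named after their values were seen. Not every gene the rule picks is printed. The 13 lists held 170 genes, 168 of them found. Alternatives were 3 scalings, adjustment within a comparison, a q of 0.01, a minimum of 1 FPKM, pseudocounts of 0.1 and 1 FPKM and leaving out the 105 entries that merge genes. The scripts ran in Python 3.11.15 with pandas 2.3.3. Of their steps, only the centring of folds and the calling of genes after it were tested on simulated data. Reads without molecular identifiers are not independent molecules, and the bounds rest on the authors' model.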

Additional observations from a re-analysis of the deposited data

How the results depend on the processing

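No paired analysis was possible because the deposited columns pool the 3 libraries of a group, and for the same reason leaving out each replicate in turn was not run. Of the 40 member calls, 36 were kept under all 3 scalings. The 4 others were Egr1 in AT against BM LSC and in BL against SPL LSC, Fosb in BL against BM LSC and Fos in BL LSC against NBM. Centring, upper quartile and total count scaling gave 47, 48 and 50 calls, adjustment within a comparison 36, a q below 0.01 gave 25, leaving out merged entries 40, and a minimum of 1 FPKM 39 of the 84 results it left. The share of all tested genes called in a comparison ran from 2.80% to 30.6% under centring. It ran from 2.79% to 30.5% under upper quartile scaling and from 3.31% to 33.5% under total count scaling. Total count scaling gave 4 members called in AT against BL LSC and 2 in BM LSC against NBM, upper quartile scaling 1 in the latter. AT LSC against NBM gave 7 under centring and under upper quartile scaling, where 18.9% and 19.0% of all tested genes were called. Under total count scaling 6.67% of all tested genes were called in AT against BL LSC and 15.8% in BM LSC against NBM. Upper quartile scaling gave 15.6% in BM LSC against NBM. In SPL against BM LSC 1 was called with adjustment within the comparison and 1 at a q below 0.01. That threshold gave 3 in BL against BM LSC and 1 in SPL LSC against NBM. For Ier2, not called, BL against BM LSC turned from -0.11 to 0.26 under centring and 0.27 under upper quartile scaling. For Jund, not called, BM LSC against NBM turned from 0.04 to -0.0036 under upper quartile and -0.017 under total count scaling. The shift that a scaling removes reached -0.57 under upper quartile scaling in AT against SPL LSC, where the median of all genes was -0.52. Adding 0.1 FPKM to both groups moved 1 of the 100 member folds by 1 SE or more and adding 1 FPKM moved 21, and neither reversed any. The cause of these changes was not tested. Jund in SPL LSC, at 5.58 estimated counts, is the level that depth limits most.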
